A study of Saccharomyces cerevisiae with 15 samples.

Results

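The genes described here encode the proteins of the mitochondrial ribosome of Saccharomyces cerevisiae, as far as their symbols show it. A gene was a member if its symbol was MRPL, MRPS, MRP or RSM followed by digits alone, with 1 probe set per gene. That gave 66 of the 5449 S. cerevisiae genes measured: 37 of the large subunit, 27 of the small subunit, and 2 that the symbol admits but that belong to neither, MRP8 and RSM22. MRP8 is a cytosolic protein of unknown function, and RSM22 is a methyltransferase-like factor needed for the small subunit. By the family names of the reference annotation, 27 of the 64 subunit genes belong to families found in all ribosomes, 13 to families shared with bacteria, and 24 have no bacterial counterpart.

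The mitochondrial ribosome translates the few messages of mitochondrial DNA, which code mainly for subunits of the respiratory chain and of ATP synthase. Its ribosomal RNAs and the small subunit protein Var1 are encoded by mitochondrial DNA. All of its other proteins are made in the cytosol from nuclear genes and imported. A Rho0 strain, which has lost its mitochondrial DNA, therefore has no RNA on which a mitochondrial ribosome could be built, while it retains the nuclear genes of the proteins.

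The cells compared were of 3 kinds, each from 5 biological replicates. Rho0 LD were the low density cells of a BY4741 derivative without mitochondrial DNA, WT LD the low density cells of BY4741 itself, and WT HD its high density cells. All were taken on day 3 from YPD medium with 2% glucose and separated on Percoll, and no group received a further treatment. BY4741 is a haploid a strain that lacks working HIS3, LEU2, MET17 and URA3, and all 3 groups share these deletions. How the derivative was made, and from how many isolates, is not given in the sources used here. No high density Rho0 cells were analysed here, so that in Rho0 LD against WT HD the genotype and the density cannot be told apart.

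Values are log2 signals after RMA, an array normalization in which each transcript is measured against the rest of its array. A log2 difference of 1 is a 2-fold change. The call of a gene needed an adjusted p under 0.05 in a limma fit of all 15 arrays, with Benjamini-Hochberg adjustment over the 5449 genes. The number of arrays limits the precision. The background level, from the probe sets on the same array for the fission yeast S. pombe, was 2.56. The group mean of 65 of the 66 members was above it in each group, and MRPL11, the protein at the base of the ribosomal stalk, was below it in all 3.

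Several controls differed between the groups. The mean of the 36 poly-A spike-in probe sets, RNAs added in the laboratory, was 9.66 ± 0.24 in Rho0 LD, 10.34 ± 0.24 in WT LD and 10.12 ± 0.20 in WT HD cells (SD, n = 5 each). The 5′ probe set of the 25S ribosomal RNA averaged 7.75 ± 0.27 in Rho0 LD, 11.36 ± 0.45 in WT LD and 7.87 ± 0.13 in WT HD cells. The middle probe set of the same RNA averaged 13.28 ± 0.15, 14.17 ± 0.04 and 10.99 ± 0.32 in this order. Its 3′ probe set averaged 14.24 ± 0.02, 14.16 ± 0.02 and 13.94 ± 0.14, so that the difference between the groups depended on the probe set. Of the 5 a-cell markers measured, 3 were lower (MFA1, MFA2 and BAR1) and 1 higher (STE6) in Rho0 LD than in WT LD cells. All 5 were higher in WT LD than in WT HD cells, while 4 of 4 alpha-cell markers and 3 of 4 meiotic markers were lower. The per-array mean of the a-cell markers was 6.90 to 7.33 in Rho0 LD, 7.34 to 7.59 in WT LD and 6.16 to 6.36 in WT HD cells. That of the meiotic markers was 4.36 to 4.56 in Rho0 LD, 3.99 to 4.27 in WT LD and 5.33 to 5.61 in WT HD cells. That of the alpha-cell markers was 4.28 to 4.55 in Rho0 LD, 4.42 to 4.85 in WT LD and 5.48 to 5.94 in WT HD cells. Single alpha-cell markers differed widely in level. SAG1 averaged 9.34 in Rho0 LD, 8.97 in WT LD and 10.27 in WT HD cells. MF(ALPHA)1 averaged 2.24, 2.26 and 2.82 in this order, below background in both LD groups. The part of these controls and markers in the results below was not tested. Of the 4 genes of which the strain lacks a working copy, MET17 and URA3 were below the background level in all 3 groups. LEU2 was just above it (2.70 in Rho0 LD, 2.90 in WT LD and 2.67 in WT HD cells), and HIS3 was well above it (5.87, 5.98 and 6.09 in the same order). The genes of mitochondrial DNA were not analysed here, so the Rho0 label was not checked against them.

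**Figure D1:**
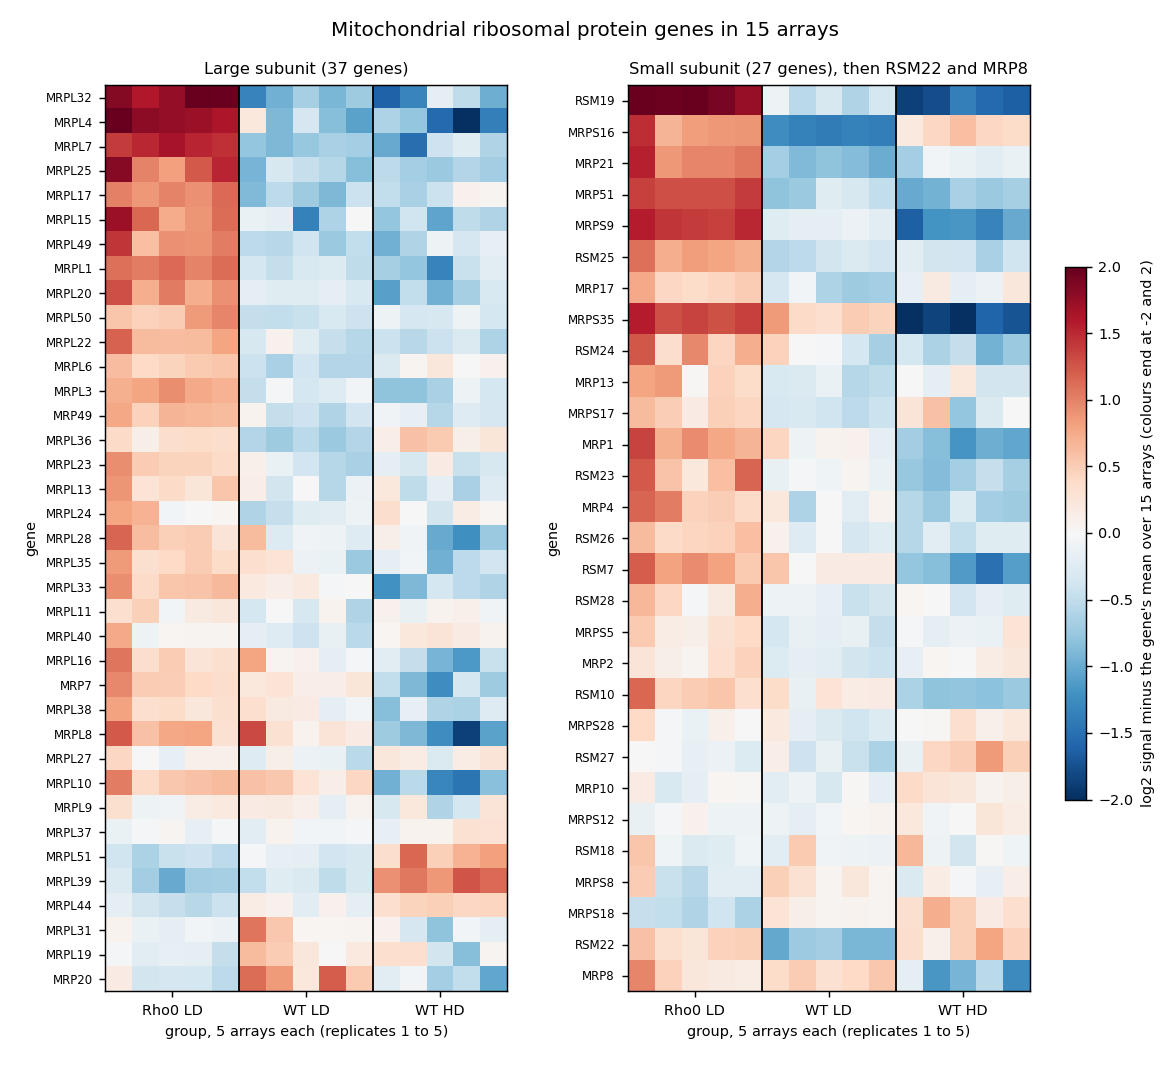
Log2 signal of each of the 66 genes (rows) in each of the 15 arrays (columns, replicates 1 to 5 of Rho0 LD, WT LD and WT HD), as the deviation from the gene's mean over the 15 arrays, with colours that end at -2 and 2. The Rho0 LD columns are red in most rows, and 48 of the 66 genes had their highest group mean there.

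Most mitochondrial ribosomal protein genes had their highest signal in cells without mitochondrial DNA. The highest of the 3 group means was in Rho0 LD for 48 of the 66 members (72.7%), in WT LD for 5 and in WT HD for 13. Under the 4 other scalings tried, Rho0 LD had the highest mean for 45 to 60 members. The 60 came with the same poly-A mean, where 3955 of 5449 genes were called higher in Rho0 LD than in WT LD cells. Over all 5449 genes, Rho0 LD had the highest mean for 43.1%, WT LD for 17.6% and WT HD for 39.3%. The cytosolic ribosomal protein genes had another order: of 127, the highest mean was in Rho0 LD for 14, in WT LD for 28 and in WT HD for 85. The orders of all genes and of the cytosolic ribosomal protein genes were counted on the deposited values alone. In these bulk samples fewer cells that express a gene and less RNA per cell cannot be told apart.

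Per array, the mean log2 signal of the large subunit members was 6.76 ± 0.16 in Rho0 LD, 6.04 ± 0.10 in WT LD and 5.90 ± 0.08 in WT HD cells (SD, n = 5 each). That of the small subunit members was 6.81 ± 0.17 in Rho0 LD, 6.02 ± 0.09 in WT LD and 5.86 ± 0.03 in WT HD cells. The subunits thus moved by like amounts. The large minus the small subunit mean was -0.05 ± 0.03 in Rho0 LD, 0.01 ± 0.05 in WT LD and 0.04 ± 0.06 in WT HD cells. It differed by -0.07 between Rho0 LD and WT LD, by -0.02 between WT LD and WT HD, and by -0.09 between Rho0 LD and WT HD. Rho0 LD replicate 1 stood above its group: its subunit means were 7.04 and 7.11, against 6.66 to 6.72 and 6.68 to 6.78 in the other 4.

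The comparison of Rho0 LD with WT LD sets cells of the same density class with and without mitochondrial DNA side by side. Of the 66 members, 44 rose, 7 fell and 15 were not called, where 67.3% of all genes were called, 44.6% upward and 22.7% downward. The share of members that rose was 66.7%. At least a 2-fold change was found in 21 members upward and 1 downward, against 27.7% of all genes, 17.7% upward and 10.1% downward. The groups did not overlap in 39 members that were higher and 4 that were lower, against 57.2% of all genes in either direction. The median difference was 0.65 log2 over the members and 0.25 over all genes, and the members ran between -1.06 and 2.76. In the large subunit 23 of 37 rose and 5 fell, with a median of 0.62, and in the small subunit 20 of 27 rose and 2 fell, with a median of 0.82. MRPL11, below background, is among those called higher. Without Rho0 LD replicate 1 the counts were 43 higher and 6 lower, and under the alternatives that kept all arrays, apart from a test against a 1.5-fold change, 37 to 58 were higher and 0 to 9 lower.

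MRPL32, a large subunit protein whose maturation by the m-AAA protease precedes ribosome assembly, had the largest rise. Its log2 signal was 8.64, 8.40, 8.55, 8.82 and 8.77 in Rho0 LD cells, against 5.45, 5.83, 6.13, 5.87 and 6.08 in WT LD cells. All Rho0 LD arrays lay above all WT LD arrays, and the difference of 2.76 ± 0.21 (SE) is 6.79-fold (limma adjusted p = 2.22e-09). MRPL4, a protein at the exit of the peptide tunnel, had 6.96, 6.37, 6.34, 6.31 and 6.20 in Rho0 LD cells and 4.79, 3.68, 4.25, 3.72 and 3.50 in WT LD cells. Its groups did not overlap either, and it was 5.46-fold higher (2.45 ± 0.26 log2, limma adjusted p = 1.52e-07). RSM19, a protein of the head of the small subunit, had 10.72, 10.21, 10.30, 10.16 and 9.99 in Rho0 LD cells and 8.15, 7.71, 7.93, 7.65 and 7.90 in WT LD cells. It was 5.32-fold higher (2.41 ± 0.14 log2, limma adjusted p = 5.86e-11).

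Another 5 members that rose came next in size, and their groups did not overlap. MRPS16, the counterpart of bacterial S16, averaged 9.47 ± 0.30 in Rho0 LD and 7.18 ± 0.06 in WT LD cells (SD, n = 5 each), a 4.88-fold difference. MRPL7, which in bacteria as L5 binds the 5S RNA that yeast mitochondrial ribosomes lack, averaged 9.41 ± 0.09 in Rho0 LD and 7.16 ± 0.10 in WT LD cells and was 4.78-fold higher. MRP21, the counterpart of bacterial S21, was 3.82-fold higher in Rho0 LD cells. MRPL25, also known as AFO1 and without a bacterial counterpart, was 3.75-fold higher. MRP51, a small subunit protein linked by genetics to the leaders of the COX2 and COX3 messages, was 3.59-fold higher, with an SD of 0.05 over the 5 Rho0 LD arrays. The adjusted p of these 5 in limma lay between 4.29e-11 (MRPS16) and 1.19e-08 (MRPL25).

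The 3 largest falls among members whose groups did not overlap were smaller. MRP20, another protein of the tunnel exit, had 5.01, 4.48, 4.51, 4.48 and 4.32 in Rho0 LD cells and 5.96, 5.69, 5.04, 6.04 and 5.36 in WT LD cells. The highest Rho0 LD array lay just under the lowest WT LD array, and the gene was 2.09-fold lower (-1.06 ± 0.20 log2, limma adjusted p = 0.000155). MRPS18, the counterpart of bacterial S11, had 7.99, 7.96, 7.85, 8.05 and 7.82 in Rho0 LD cells and 8.72, 8.56, 8.49, 8.52 and 8.49 in WT LD cells. It was 1.54-fold lower (-0.63 ± 0.11 log2, limma adjusted p = 8.41e-05). MRPL19, the counterpart of bacterial L11 at the base of the stalk, had 7.90, 7.72, 7.77, 7.74 and 7.46 in Rho0 LD cells and 8.57, 8.45, 8.17, 7.95 and 8.13 in WT LD cells. It was 1.45-fold lower (-0.54 ± 0.20 log2, limma adjusted p = 0.0206). Its adjusted p was 0.0551 without Rho0 LD replicate 5 and 0.0567 without WT LD replicate 1. With all arrays shifted to the same poly-A mean the fall of MRP20 was not called (-0.38 log2, adjusted p = 0.147), MRPS18 and MRPL19 were at 0.056 and 0.14 log2, and 58 members rose and 0 fell. Under that shift the median over all genes was 0.94 log2. The remaining 4 called lower, MRPL31, MRPL39, MRPL44 and MRPS8, had overlapping groups.

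**Figure D2:**
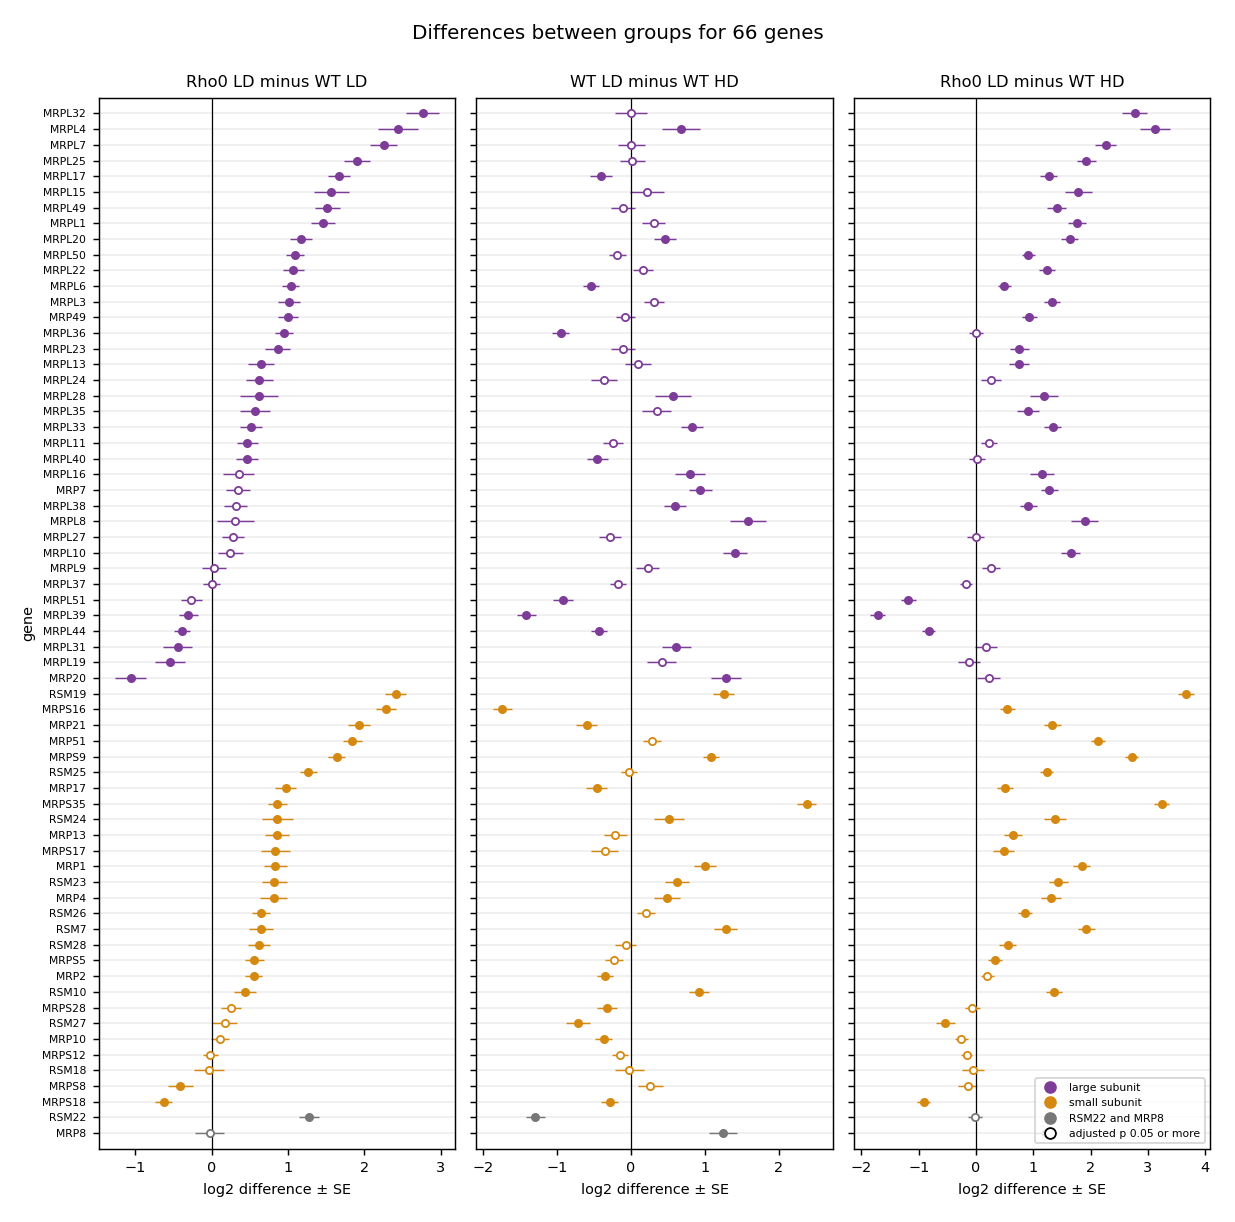
Log2 difference ± SE of each of the 66 genes (rows) between Rho0 LD and WT LD, WT LD and WT HD, and Rho0 LD and WT HD. Filled points passed the test and open points did not, and colours give the subunit. In the first panel the genes run down to MRP20 at -1.06 in the large subunit and MRPS18 at -0.63 in the small subunit, and in the second they lie on both sides of 0.

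The comparison of WT LD with WT HD sets the light and the dense cells of the same cultured strain side by side. Here the members had no common direction. Of the 66, 21 rose, 16 fell and 29 were not called, where 67.2% of all genes were called, 26.2% upward and 41.1% downward. The 21 that rose are 31.8% of the members. A change of at least 2-fold was found in 9 members upward and 3 downward, against 28.0% of all genes, 11.7% upward and 16.3% downward. The groups did not overlap in 14 members that were higher and 10 that were lower, against 47.9% of all genes in either direction. The median was 0.01 log2 over the members and -0.17 over all genes. In the large subunit 11 rose and 7 fell, and in the small subunit 9 rose and 8 fell. Which side was larger depended on the scaling: 17 rose and 22 fell when the S. pombe median of each array was made equal, 12 and 21 with the same poly-A mean, 28 and 11 with the same S. cerevisiae median, and 30 and 11 after quantile normalization.

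MRPS35, a small subunit protein without a bacterial counterpart, had the largest rise in WT LD cells. Its signal was 7.21, 6.74, 6.69, 6.86 and 6.81 in WT LD cells, against 4.33, 4.51, 4.19, 4.76 and 4.63 in WT HD cells. The groups were far apart, with a 5.19-fold difference (2.38 ± 0.13 log2, limma adjusted p = 2.15e-11). MRPL8, the counterpart of bacterial L17, had 7.07, 6.05, 5.83, 6.01 and 5.92 in WT LD cells and 5.05, 4.86, 4.51, 3.89 and 4.69 in WT HD cells. One WT LD array stood above the other 4, and the gene was 2.99-fold higher (1.58 ± 0.24 log2, limma adjusted p = 1.17e-05). MRPL10, the counterpart of bacterial L15, had 7.60, 7.55, 7.29, 7.14 and 7.42 in WT LD cells and 6.06, 6.48, 5.70, 5.56 and 6.18 in WT HD cells. It was 2.65-fold higher (1.40 ± 0.17 log2, limma adjusted p = 5.51e-07).

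The next in size were MRP20 (2.43-fold higher in WT LD cells), RSM7 (2.43-fold), RSM19 (2.38-fold), MRP8 (2.36-fold) and MRPS9 (2.11-fold), with limma adjusted p between 1.26e-07 (MRPS9) and 2.11e-05 (MRP20). RSM7, RSM19 and MRPS9 are counterparts of the bacterial head proteins S7, S19 and S9. MRP20, which fell in Rho0 LD against WT LD cells, averaged 5.62 ± 0.42 in WT LD and 4.34 ± 0.38 in WT HD cells (SD, n = 5 each). MRP8 averaged 7.60 ± 0.10 in WT LD and 6.36 ± 0.45 in WT HD cells.

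MRPS16 had the largest fall, to 7.28, 7.17, 7.13, 7.18 and 7.15 in WT LD cells, against 8.72, 8.94, 9.12, 8.93 and 8.89 in WT HD cells. The WT LD arrays lay within a narrow range below all WT HD arrays, a 3.34-fold difference (-1.74 ± 0.13 log2, limma adjusted p = 1.74e-09). MRPL39, the counterpart of bacterial L33, had 8.05, 8.31, 8.25, 8.04 and 8.23 in WT LD cells and 9.46, 9.61, 9.41, 9.80 and 9.68 in WT HD cells. It was 2.67-fold lower (-1.42 ± 0.13 log2, limma adjusted p = 1.90e-08). RSM22 had 3.25, 3.55, 3.57, 3.36 and 3.36 in WT LD cells and 4.63, 4.37, 4.75, 5.06 and 4.74 in WT HD cells. It was 2.45-fold lower (-1.29 ± 0.13 log2, limma adjusted p = 4.98e-08).

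The other falls named by size, among members whose groups did not overlap, were all in the large subunit and under 2-fold. RSM27 (-0.715 log2) and MRP21 (-0.60 log2) of the small subunit were also called lower, with larger differences than MRPL6 but overlapping groups. MRPL36, the counterpart of bacterial L31 in the central protuberance, was 1.93-fold lower in WT LD cells, and MRPL51, without a bacterial counterpart, 1.89-fold lower. MRPL6 was 1.45-fold, MRPL40 1.37-fold and MRPL44 1.36-fold lower, with limma adjusted p of 0.000299, 0.0089 and 0.00155. MRPL40, a tunnel exit protein, was near the background level, at 2.76 ± 0.17 in WT LD and 3.22 ± 0.09 in WT HD cells. After quantile normalization MRPL40 and MRPL44 were not called (adjusted p = 0.805 and 0.709).

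**Figure D3:**
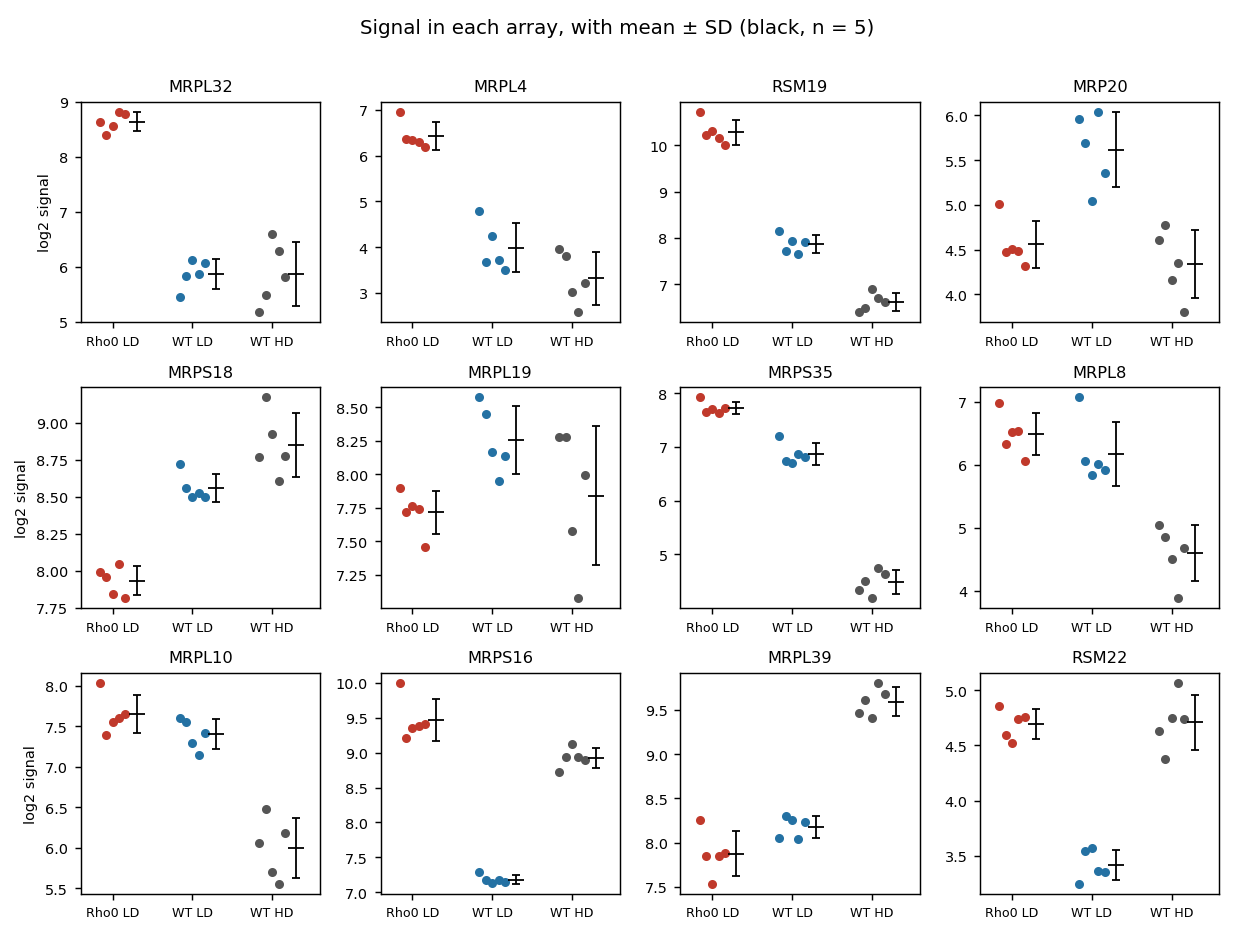
Log2 signal of 12 genes in each array of Rho0 LD (red), WT LD (blue) and WT HD (grey), with the mean ± SD in black (n = 5), each panel on its own axis. MRPL32, MRPL4 and RSM19 are highest in Rho0 LD, MRPS35 and MRPL10 are lowest in WT HD, and MRPS16 and RSM22 are lowest in WT LD.

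The comparison of Rho0 LD with WT HD shares its arrays with the other 2 comparisons and is not independent of them. Of the 66 members, 44 rose, 5 fell and 17 were not called, where 72.4% of all genes were called, 37.9% upward and 34.4% downward. At least a 2-fold change was found in 30 members upward and 2 downward, against 38.1% of all genes, 20.4% upward and 17.8% downward. The groups did not overlap in 40 members that were higher and 4 that were lower, against 58.9% of all genes in either direction. The median was 0.91 log2 over the members and 0.03 over all genes. In the large subunit 24 of 37 rose and 3 fell, and in the small subunit 19 of 27 rose and 2 fell.

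RSM19 had the largest rise, with 10.72, 10.21, 10.30, 10.16 and 9.99 in Rho0 LD cells and 6.39, 6.48, 6.88, 6.70 and 6.62 in WT HD cells, a 12.7-fold difference (3.66 ± 0.14 log2, limma adjusted p = 6.18e-14). MRPS35 was 9.45-fold, MRPL4 8.71-fold, MRPL32 6.80-fold and MRPS9 6.58-fold higher in Rho0 LD cells. MRPL32 averaged 8.64 ± 0.17 in Rho0 LD, 5.87 ± 0.27 in WT LD and 5.87 ± 0.58 in WT HD cells (SD, n = 5 each). MRPL39 had the largest fall, with 8.25, 7.85, 7.54, 7.85 and 7.88 in Rho0 LD cells and 9.46, 9.61, 9.41, 9.80 and 9.68 in WT HD cells, a 3.29-fold difference (-1.72 ± 0.13 log2, limma adjusted p = 6.24e-10). MRPL51 was 2.27-fold, MRPS18 1.89-fold and MRPL44 1.77-fold lower without overlap. The fall of MRPL44 was not called with arrays shifted to the same poly-A mean (adjusted p = 0.103). RSM27 was also called lower, with overlapping groups.

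The members of the subunits did not move as a block between the 3 groups. In all 3 comparisons 21 members were called: MRP1, MRP4, MRP17, MRP21, MRPL4, MRPL6, MRPL17, MRPL20, MRPL28, MRPL33, MRPL39, MRPL44, MRPS9, MRPS16, MRPS18, MRPS35, RSM7, RSM10, RSM19, RSM23 and RSM24. Of these, 13 are in the small subunit and 8 in the large. Of all genes, 67.3%, 67.2% and 72.4% were called in the single comparisons. The shares of all genes called in all 3, or in none, were not counted, so the numbers of members are not set against them. Calls in all 3 comparisons held for 9 of the 21 (MRP1, MRP17, MRP21, MRPL6, MRPS9, MRPS16, MRPS35, RSM7 and RSM19) under each of 25 alternatives, a test against a 1.5-fold change left aside. At least 1 call was lost under 16 of the 25 for MRPL28, 12 for MRPL39, 8 each for MRPL4, MRPS18 and RSM24, and 6 for MRPL17, and under 1 to 4 for the other 6. MRP1 has the fold of a superoxide dismutase, and RSM23 is the counterpart of the human GTP-binding protein DAP3. In none of the 3 were MRPL9, MRPL27, MRPL37, MRPS12 and RSM18 called, and each of them gained a call under 1 to 4 of these alternatives. MRPS12 is the counterpart of bacterial S12 in the decoding centre, and MRPL9 that of L3.

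By place in the small subunit, as known for the bacterial counterparts, the members of 3 domains had the following values. These groups were formed after the values were seen, hold only members by symbol, and were not tested. All 6 head members (MRP2, MRP4, MRPS9, RSM7, RSM10 and RSM19) rose in Rho0 LD against WT LD cells, between 0.44 and 2.41 log2. With the same S. cerevisiae median 5 of them rose and 0 fell. Over all genes 44.6% rose and 22.7% fell in that comparison on the deposited values. SWS2, the counterpart of the bacterial head protein S13, is no member by its symbol and fell there (-0.50 ± 0.12 log2, limma adjusted p = 0.00115), and it rose in WT LD against WT HD cells (0.58 ± 0.12 log2, limma adjusted p = 0.00031). In WT LD against WT HD cells 5 of the 6 head members rose and MRP2 fell, with values between -0.35 and 1.28 log2, where 26.2% of all genes rose and 41.1% fell. The central domain members, which make up the platform or lie beside it, were MRP17, MRP21, MRPS8, MRPS18, MRPS28 and RSM18. Of these 6, 2 rose and 2 fell in Rho0 LD against WT LD cells, and 0 rose and 4 fell in WT LD against WT HD cells, with values between -0.60 and 0.26 log2. Leaving out single arrays gave 2 or 3 higher and 1 or 2 lower central members in Rho0 LD against WT LD cells. The falls numbered 1 without Rho0 LD replicate 2, 3, 4 or 5 or without WT LD replicate 1, 2 or 4, and the poly-A shift gave 4 higher and 0 lower. The 4 members of the 5′ domain (MRPS5, MRPS12, MRPS16 and MRPS17) counted 3 higher and 0 lower in Rho0 LD against WT LD cells (median 0.70 log2), and 0 higher and 1 lower in WT LD against WT HD cells (median -0.29). In the first of these, quantile normalization gave 2 higher and 0 lower, the same S. cerevisiae median 3 and 1, and the poly-A shift 4 and 0. In the WT comparison 4 head members rose and 1 fell, and 0 central members rose and 4 fell, with arrays shifted to the same poly-A mean. With the same S. cerevisiae median 5 head members rose and 0 fell, and 1 central member rose and 2 fell. In a fit of only the 10 arrays compared, 2 central members fell, and with single arrays left out 2 to 4 did. Of the 7 tunnel exit members of the large subunit (MRP20, MRPL3, MRPL4, MRPL13, MRPL22, MRPL27 and MRPL40), 5 rose and MRP20 fell in Rho0 LD against WT LD cells, between -1.06 and 2.45 log2. After quantile normalization 3 of the 7 rose and 1 fell there, and with the poly-A shift 6 rose and 0 fell.

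By evolutionary family the counts differed most in WT LD against WT HD cells, and no test was made between families. In Rho0 LD against WT LD cells 17 of 27 members of families found in all ribosomes rose and 4 fell, 9 of 13 of the bacterial families rose and 1 fell, and 17 of 24 without a bacterial counterpart rose and 2 fell. The shares that rose were 63.0%, 69.2% and 70.8%, near the 66.7% of all members. The all-gene shares were 44.6% upward and 22.7% downward. In WT LD against WT HD cells 11 of the universal families rose and 5 fell (median 0.26 log2), 2 of the bacterial families rose and 5 fell (median -0.19), and 7 without a bacterial counterpart rose and 5 fell (median 0.06). Over all genes 26.2% rose and 41.1% fell there, with a median of -0.17. In Rho0 LD against WT HD cells the families, in the same order, had 17 higher and 1 lower, 9 higher and 1 lower, and 17 higher and 3 lower. The all-gene shares in that comparison were 37.9% upward and 34.4% downward.

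RSM22 and MRP8, which are in neither subunit, differed from each other. RSM22 averaged 4.69 ± 0.13 in Rho0 LD, 3.42 ± 0.14 in WT LD and 4.71 ± 0.25 in WT HD cells (SD, n = 5 each), so that the low group was WT LD. Its Rho0 LD arrays lay at 4.86, 4.59, 4.52, 4.74 and 4.76, all above the WT LD arrays, a difference of 1.28 ± 0.13 log2 (limma adjusted p = 5.71e-08). MRP8 averaged 7.58 ± 0.35 in Rho0 LD, 7.60 ± 0.10 in WT LD and 6.36 ± 0.45 in WT HD cells, so that the low group was WT HD.

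**Figure D4:**
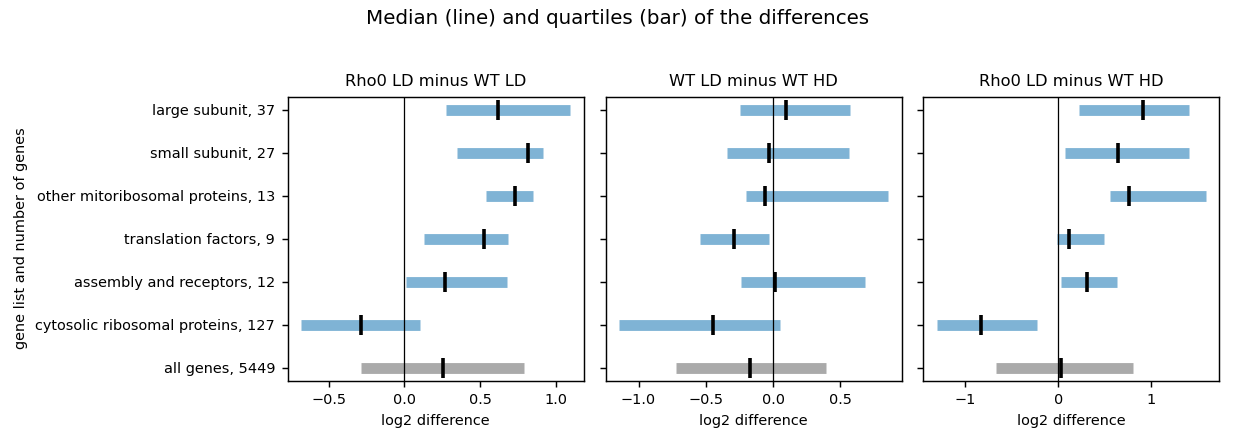
Median (black line) and quartiles (bar) of the log2 differences of the genes in each list, with the number of genes, in the 3 comparisons. In Rho0 LD against WT LD the 2 subunits have medians of 0.62 and 0.82, all genes 0.25 and the cytosolic ribosomal proteins -0.29.

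Proteins of the same ribosome that carry other names rose in their majority in both Rho0 LD comparisons. Of 13 measured, 11 rose and 2 fell in Rho0 LD against WT LD cells, 6 rose and 2 fell in WT LD against WT HD cells, and 10 rose and 2 fell in Rho0 LD against WT HD cells. Over all genes 44.6% rose and 22.7% fell in the first, 26.2% and 41.1% in the second, and 37.9% and 34.4% in the third. PET123, a small subunit protein, was 2.56-fold higher in Rho0 LD than in WT LD cells, and MNP1, the counterpart of the bacterial stalk protein L7/L12, 2.04-fold higher. MNP1 and IMG1, a large subunit protein, were 3.76-fold and 3.48-fold higher in Rho0 LD than in WT HD cells. In WT LD against WT HD cells QRI5, also known as COX24, was 2.62-fold lower, and MHR1, which also has a role in recombination of mitochondrial DNA, was 2.32-fold higher. The adjusted p of these differences in limma was at most 2.55e-06. RTC6 of the same list was called lower in all 3 comparisons. It differed by -1.02 log2 in Rho0 LD against WT LD, -0.62 in WT LD against WT HD and -1.64 in Rho0 LD against WT HD cells (limma adjusted p at most 0.00158).

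Of 9 mitochondrial translation factors, 5 rose and 1 fell in Rho0 LD against WT LD cells, 2 rose and 4 fell in WT LD against WT HD cells, and 3 rose and 0 fell in Rho0 LD against WT HD cells. The share called was 66.7% in the first and second, against 67.3% and 67.2% of all genes, and 33.3% in the third, against 72.4%. MRF1, the release factor, averaged 4.71 in Rho0 LD, 3.02 in WT LD and 3.31 in WT HD cells, and was 3.25-fold higher in Rho0 LD than in WT LD and 2.65-fold higher than in WT HD cells. GUF1, the counterpart of bacterial LepA, was 2.80-fold higher in Rho0 LD than in WT LD cells and 2.83-fold lower in WT LD than in WT HD cells. TUF1, the elongation factor Tu, was 2.13-fold higher in WT LD and 1.53-fold higher in Rho0 LD, each against WT HD cells. The largest adjusted p of these values in limma was 0.000487 for TUF1 in Rho0 LD against WT HD cells. TUF1 was also the 1 factor called lower in Rho0 LD than in WT LD cells (-0.48 ± 0.14 log2, limma adjusted p = 0.00432).

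Of 12 factors for assembly, RNA modification and attachment of the ribosome to the inner membrane, RSM22 among them, 6 rose and 2 fell in Rho0 LD against WT LD cells. In WT LD against WT HD cells 5 rose and 3 fell, and in Rho0 LD against WT HD cells 6 rose and 1 fell. The share called was 66.7%, 66.7% and 58.3% in these comparisons, against 67.3%, 67.2% and 72.4% of all genes. YLH47, a homologue of the ribosome receptor MDM38, was 2.94-fold lower in Rho0 LD than in WT LD cells and 4.31-fold higher in WT LD than in WT HD cells. MTG2, a GTPase of large subunit assembly, was 2.87-fold lower in Rho0 LD than in WT LD cells. MDM38 was not above the background level in WT LD cells (2.34) and averaged 3.80 in WT HD cells (limma adjusted p = 1.09e-06). MBA1, a ribosome receptor, and OXA1, the insertase of the inner membrane, were 3.42-fold and 2.14-fold higher in Rho0 LD than in WT HD cells.

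On the deposited values, the cytosolic ribosomal protein genes went the other way from the members in Rho0 LD cells. Of 127, 9 rose and 57 fell in Rho0 LD against WT LD cells (median -0.29 log2), 16 rose and 67 fell in WT LD against WT HD cells (median -0.45), and 11 rose and 83 fell in Rho0 LD against WT HD cells (median -0.82). The shares of all genes that rose and fell were 44.6% and 22.7%, 26.2% and 41.1%, and 37.9% and 34.4% in the same order. This list was not counted under the other scalings. With arrays shifted to the same poly-A mean, RPS11A was not called in Rho0 LD against WT LD cells (-0.015 log2, limma adjusted p = 0.956). The all-gene median was 0.94 log2 under that shift. RPS27A was 7.22-fold and RPL23A 3.90-fold lower in Rho0 LD than in WT LD cells. RPS11A was 5.54-fold and RPL38 5.28-fold lower in WT LD than in WT HD cells, and RPS14B 14.4-fold and RPS11A 8.98-fold lower in Rho0 LD than in WT HD cells. Most of these proteins have 2 nearly identical gene copies, so that the values of single copies are uncertain.

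Yeast genes are close together, and 37 members share their upstream region with a gene that is read the other way, of which 33 had a measured neighbour. In Rho0 LD against WT LD cells 17 of these 33 neighbours rose and 5 fell, with a median of 0.31 log2. These shares of 51.5% and 15.2% stand against 44.6% and 22.7% of all genes, whose median was 0.25. The 33 members with a measured neighbour had a median of 0.86. In WT LD against WT HD cells 8 neighbours rose and 13 fell, and in Rho0 LD against WT HD cells 9 rose and 8 fell. The shares were 24.2% and 39.4% in the former, against 26.2% and 41.1% of all genes. In the latter they were 27.3% and 24.2%, against 37.9% and 34.4%. RPB7, a subunit of RNA polymerase II across the shared region from MRP20, differed by -1.07 log2 between Rho0 LD and WT LD cells, and MRP20 by -1.06. Between Rho0 LD and WT HD cells the pair parted, with RPB7 at -0.43 and MRP20 at 0.22 log2. Other pairs went opposite ways in Rho0 LD against WT LD cells, such as MRPL15 (1.57 log2) and its neighbour ATG39 (-1.81 log2). These pairs were named after their values were seen, and an effect of the shared regions was not tested.

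The spread within groups was like that of other genes. The median SD of the members over the 5 arrays was 0.22 in Rho0 LD, 0.19 in WT LD and 0.24 in WT HD cells, against 0.17, 0.21 and 0.28 over all genes. The largest were those of RSM23 in Rho0 LD (0.43), MRPL15 in WT LD (0.56) and MRPL28 in WT HD cells (0.59). Replicates of a group are biological replicates by their labels.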

How the data were processed

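RNA of 15 samples was hybridised to Affymetrix Yeast Genome 2.0 arrays, 100 ng of total RNA each, per the labels' protocols. The authors deposited log2 signals, for which the submitters' processing notes name RMA and Affymetrix Expression Console. Versions, the genome build and scan batches are not given in the sources used here.

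The table held 10928 probe sets. The platform annotation named 1 gene for 7244, several for 1 and none for 3683. By match to the RefSeq table of strain S288C, 5498 named an S. cerevisiae gene, and the other 1746 were counted to S. pombe. The probe set with the highest mean stood for each of the 47 genes that had more than 1, which left 5449 genes. Each of the 66 members had 1 probe set, and MRP35 was not analysed here. Background was set at percentile 95 of the mean signals of S. pombe probe sets. No sequences were used here.

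The limma fit (version 3.58.1 in R 4.3.3, lmFit then eBayes, two-sided) estimated group means, and differences are the first group named minus the second. The code was tested on simulated data. The alternatives tried were the 10 arrays compared alone, a replicate block, eBayes with trend and robust settings, only genes above background, quantile normalization, equal S. pombe medians, S. cerevisiae medians or poly-A means of the arrays, averaged probe sets, array weights, a treat threshold of 1.5-fold, and leaving out single arrays.

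Members with values are the 8 largest changes each way in Rho0 LD against WT LD and in WT LD against WT HD, and the 5 largest in Rho0 LD against WT HD, among members called, without overlap and above background in the higher group. Fewer than that fell in both Rho0 LD comparisons. Of each other list, the 2 called genes with the largest change in a comparison are named. RTC6, SWS2 and the fall of TUF1 in Rho0 LD against WT LD cells are given beyond this rule. COX24 and MTG3 were read as QRI5 and GEP3, and TSF1 matched no gene. The members and lists were chosen with earlier results of these data known.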

Additional observations from a re-analysis of the deposited data

Results flagged for a closer look

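Among the named genes, 15 of 126 groups of 5 arrays had an array whose gap to its nearest neighbour passed Dixon's 95% limit for its group, and among all members 19 of 198. Chance flags about 1 in 20 groups. Of the 19, 10 were in Rho0 LD replicate 1 and 5 in WT LD replicate 1.

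Rho0 LD replicate 1 was the highest of its group for MRP20 (5.01 log2, next 4.51), MRP21 (8.37, next 7.86), MRPL4 (6.96, next 6.37), MRPL40 (3.82, next 3.13), MRPS16 (9.996, next 9.41) and the cytosolic RPL38 (9.57, next 8.87). Rho0 LD replicate 2 was the lowest for MRPL36 (8.13, next 8.37), and Rho0 LD replicate 3 the highest for the cytosolic RPL23A (9.41, next 9.16). WT LD replicate 1 was the highest for MRPL8 (7.07, next 6.05), MRPS18 (8.72, next 8.56) and RSM7 (9.65, next 9.25). In the same group the lowest was replicate 4 for MBA1 (5.62, next 5.76), replicate 2 for MRF1 (2.68, next 3.03) and replicate 5 for RPS11A (6.34, next 7.14). WT HD replicate 1 was the lowest for MRP21 (6.13, next 6.60).

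Without Rho0 LD replicate 1 the members counted 43 higher and 6 lower in Rho0 LD against WT LD, and 42 higher and 7 lower in Rho0 LD against WT HD.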

How the results depend on the processing

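The 3150 values under alternatives of the 42 genes named by the rule kept their side of the threshold, and their direction where called, in 3068. With the sign kept, a call was lost in 49 and gained in 27, and the sign turned in 6. The 6 were in Rho0 LD against WT LD with arrays shifted to the same poly-A mean: MRP8 at 0.66, MRPL19 at 0.14, MRPL39 at 0.38, MRPL44 at 0.30, MRPS18 at 0.056 and TUF1 at 0.20 log2. Of these only MRP8 was called under the shift (limma adjusted p = 0.0159), and it was not called on the deposited values. The others had been called lower on the deposited values, and under the shift they were not called. That shift moves all values of an array alike, with an all-gene median of 0.94 log2 there, -0.40 in WT LD against WT HD and 0.48 in Rho0 LD against WT HD. In Rho0 LD against WT LD the members called lower were then 0, 3 with the same S. pombe median, and 0 under treat, which called 23 higher. In WT LD against WT HD the poly-A shift left 12 higher, and treat 10 higher and 5 lower. The member median minus the all-gene median was 0.18 there and 0.29 after quantile normalization. In Rho0 LD against WT HD the same S. cerevisiae median gave 8 lower and the poly-A shift 3. The causes of these changes were not tested.

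With each array left out in turn, Rho0 LD against WT LD had 42 to 48 members higher and 3 to 7 lower, WT LD against WT HD 18 to 22 higher and 14 to 17 lower, and Rho0 LD against WT HD 42 to 45 higher and 5 to 7 lower. Lower counts of 3 or 4 in the first came without Rho0 LD replicate 2, 3, 4 or 5 or WT LD replicate 1 or 2. The member median minus the all-gene median ran from 0.32 to 0.47, 0.17 to 0.28 and 0.81 to 0.90, and the subunit difference from -0.08 to -0.05, -0.05 to -0.01 and -0.11 to -0.08. With the replicate number as a block, 46 members were higher and 6 lower in Rho0 LD against WT LD, 23 and 17 in WT LD against WT HD, and 44 and 5 in Rho0 LD against WT HD. The labels do not say whether arrays of 1 number share a culture. Correlations of deviations of same-numbered arrays ran from -0.05 to 0.34 in Rho0 LD against WT LD, 0.04 to 0.37 in WT LD against WT HD (over 0.1 in 4 of 5 pairs) and -0.03 to 0.25 in Rho0 LD against WT HD. By number, 6 of 15 pairs matched best, among them replicate 1 in each comparison (0.34, 0.37 and 0.19). The main fit did not take the numbers as pairs, and a shared effect of the replicate number was not tested. Under the block MRPL39 was not called in Rho0 LD against WT LD (adjusted p = 0.0559).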
